A study of Sus scrofa with 6 samples.

Results

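The respiratory chain and the ATP synthase of the inner mitochondrial membrane are built from subunits encoded in the nucleus and subunits encoded in mitochondrial DNA (mtDNA). Complexes I (NADH dehydrogenase), III (cytochrome bc1) and IV (cytochrome c oxidase) pump protons as electrons pass from NADH to oxygen, complex II (succinate dehydrogenase) feeds electrons from succinate, and complex V (ATP synthase) makes ATP from the proton gradient. Complex II is the complex with no mtDNA-encoded subunit, and in the other complexes the nuclear-encoded subunits are assembled around a core made inside the mitochondrion.

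The mRNAs described here were the nuclear-encoded subunits of the 5 complexes, chosen by gene symbol alone. They were the gene IDs of the deposited table whose symbol begins with NDUFA, NDUFB, NDUFC, NDUFS or NDUFV and a digit, is SDHA to SDHD or CYC1, or begins with UQCR, ATP5 or COX4 to COX8 and a letter, without the assembly factors named NDUFAF. The rule found 66 gene IDs among the 31908 listed, of which 29 were assigned to complex I, 3 to complex II, 6 to complex III, 14 to complex IV and 14 to complex V. NDUFA4 and its relative NDUFA4L2 were set with complex IV, to which the NDUFA4 protein belongs. The symbols also took in COX7A2L, which joins complexes III and IV into supercomplexes, and ATP5IF1, which inhibits the ATP synthase, although neither is a catalytic subunit.

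RNA came from IPEC-J2 cells, an epithelial cell line of the pig small intestine, in 6 libraries: the CON group received PBS (3 libraries) and the CDCA group chenodeoxycholic acid, a primary bile acid, at 50 μM (3 libraries), both over 24 h. The comparison asked which genes respond to CDCA. The study calls the libraries of a group biological replicates, and the labels do not say whether they came from separate cultures, so the p-values measure the spread between these libraries. The values are TPM (transcripts per 1000000 transcripts), a level per transcript length, summed over the listed transcripts of a gene ID. The deposited values hold no read counts, so no counting error can be given for a value.

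The listed TPM summed to between 351770 and 366073 per library, of the 1000000 that all transcripts would give, so a value covers the listed transcripts of a gene and can miss others. The epithelial markers EPCAM, KRT8, KRT18 and CLDN4 had means of 65.6 TPM or more in both groups, whereas CDH1 was listed at a mean of 0.397 TPM in CON. The listed epithelial markers summed to 624 to 647 TPM in CON and 1182 to 1322 TPM in CDCA, mostly through CLDN4, a tight junction protein, at means of 225 and 806 TPM. The 4 fibroblast markers summed to at most 1.78 TPM in any library. The 4 leukocyte markers summed to 1.26 to 2.49 TPM in CON and 6.49 to 7.24 TPM in CDCA, of which CD68, a lysosomal membrane protein, held 4.84 ± 0.452 TPM (SD, n = 3) in CDCA, while PTPRC, which defines leukocytes, was listed at a mean of 0.00333 TPM there. The 3 endothelial markers summed to at most 2.37 TPM. The part of these genes in the results below was not tested.

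Levels of the subunit mRNAs spread over a wide range. Averaged over the 6 libraries, 20 of the 66 were listed at 100 TPM or more, 30 at 10 to under 100 TPM, 10 at 1 to under 10 TPM and 6 under 1 TPM. COX4I1, the largest nuclear-encoded subunit of cytochrome c oxidase, had the highest level, at 549 ± 10.6 TPM (SD, n = 3) in CON. The 6 under 1 TPM were COX4I2, COX6B2, COX7A1, NDUFA4, NDUFA9 and NDUFS5, and they were not tested. COX4I2, COX6B2 and COX7A1 are isoforms known from particular tissues, but NDUFA9 and NDUFS5 belong to complex I in every tissue and were listed at 0 in 3 and in 5 of the 6 libraries. A value near 0 therefore does not show that a subunit is not made.

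The 60 subunit mRNAs with a mean of at least 1 TPM moved downward on balance with CDCA. By limma over the 8708 genes tested, 24 of the 60 were lower in CDCA at a false discovery rate (FDR) under 0.05, or 40.0%, against 23.9% of all tested genes, and 7 were higher, or 11.7%, against 29.3% of all. The changes were small: 1 subunit, UQCRQ, fell with a log2 fold change over 1 in size, as did 3.90% of all tested genes, and 3.51% of all rose by as much, whereas the largest rise among the 60 was 0.47. With a pseudocount of 0.1 TPM, COX6A1 also fell by over 1, at -1.03. The median log2 fold change of log2(TPM + 1) was -0.20 over the 60 tested subunits and 0.05 over all tested genes. The summed TPM of the 66 was 6064, 6106 and 5834 in CON replicates 1 to 3 and 5572, 5668 and 5666 in CDCA replicates 1 to 3, and the 2 groups did not overlap. In a bulk sample, fewer cells that express a gene and less of its RNA per cell cannot be told apart.

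TPM values of a library share 1 total, and all 13 mtDNA-encoded mRNAs were lower in CDCA by limma. With totals of the listed TPM computed without them, 35 subunits were lower and 2 higher, beside 31.9% and 20.1% of all genes tested. The median over the 60 was -0.35 with those totals, and the median over all tested genes moved from 0.05 to -0.08. Those totals hold only the listed part of the 1000000, in which the mtDNA-encoded mRNAs have a larger share than in the whole. The shift can thus be larger than their share of all transcripts would give. With each library scaled to the same median ratio, 30 were lower and 4 higher, beside 27.0% and 26.4% of all genes tested. Relative to the median of all tested genes, the median of the subunits was -0.24 as deposited, -0.26 with totals without the mtDNA-encoded genes and -0.25 with the median ratio.

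The complexes are compared in the plot of log2 fold changes, with the tested subunits of each in the order of their change. The counts below stand beside 23.9% lower and 29.3% higher among all tested genes. Of 27 tested subunits of complex I, 11 were lower (40.7%) and 2 higher (7.41%), and the median log2 fold change was -0.23 (-0.23 to -0.15 with 1 library left out). In complex II, 1 of 3 was higher and the median was -0.05, but -0.13 to 0.03 with 1 library left out. In complex III, 3 of 6 were lower and the median was -0.25. In complex IV, 2 of 10 were lower and 2 higher (20.0% each), near or under those shares, and the median was 0.01. In complex V, 8 of 14 were lower (57.1%) and 2 higher (14.3%), and the median was -0.35. With the subunits found by other means than the symbol rule added, the median was -0.21 in complex V and -0.13 in complex II. The median of each of the 5 complexes was below that of all tested genes under every scaling tried. That of complex IV, just above 0 as deposited, was -0.14 with totals without the mtDNA-encoded genes and -0.04 with the median ratio. With those totals 5 of the 10 of complex IV were lower and 1 higher, beside 31.9% and 20.1% of all genes tested. With the median ratio 4 were lower and 2 higher, beside 27.0% and 26.4%. Differences between complexes were not tested.

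**Figure D1:**
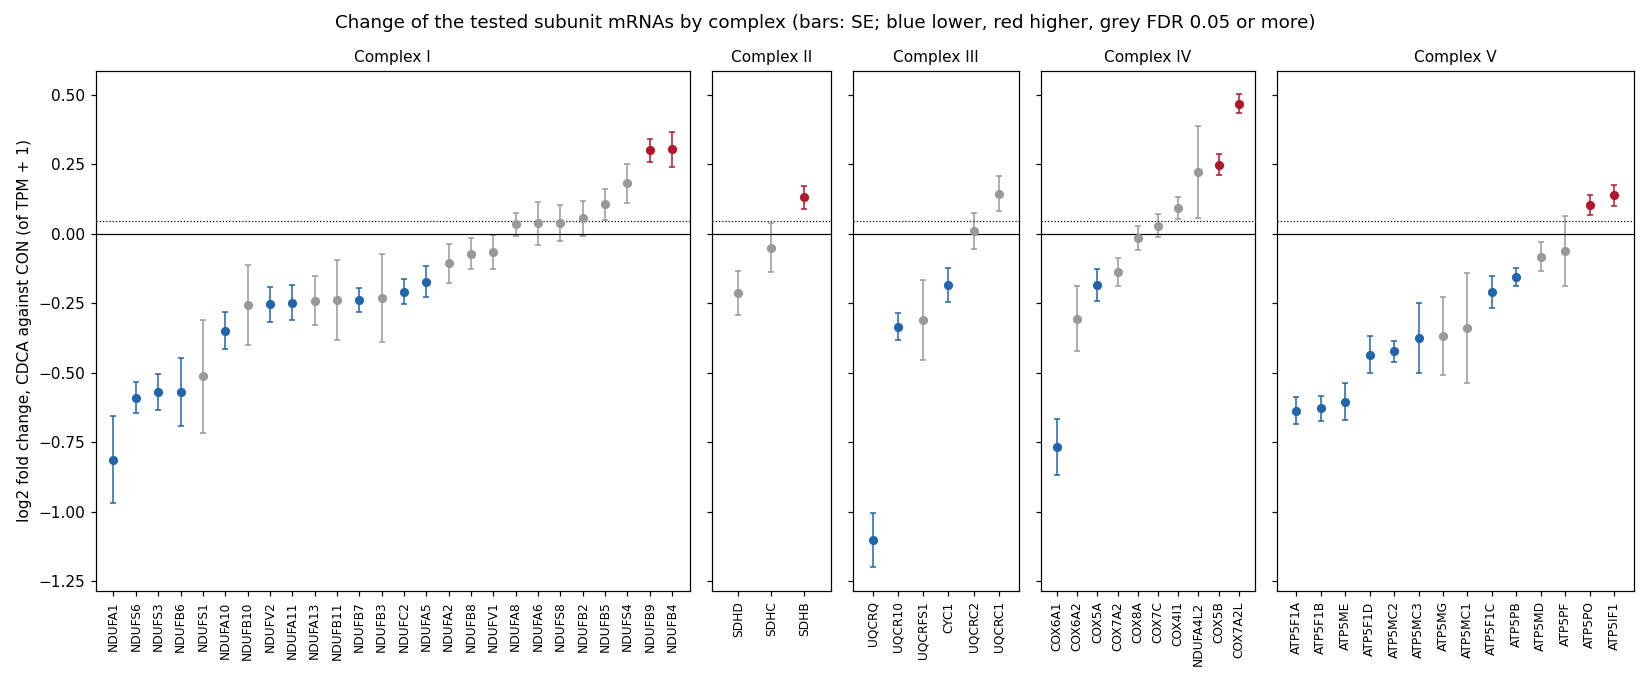
Log2 fold change of each tested nuclear-encoded subunit mRNA (CDCA against CON, of TPM + 1, bars SE, 3 libraries a group), by complex and in order of change. Blue points were lower and red points higher at an FDR under 0.05 (24 and 7 of 60, of which 1 is not drawn), grey points were not past it, and the dotted line is the median of all 8708 tested genes (0.05).

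In the ATP synthase, the alpha and beta subunits of the catalytic head were lower. The F1 part holds the catalytic sites and the central stalk that turns in it. All 4 of its subunits found by symbol were lower in CDCA, with log2 fold changes between -0.64 and -0.21. ATP5F1E, the epsilon subunit found by its description, was weakly listed, at means of 0.553 TPM (CON) and 1.45 TPM (CDCA). It reached the filter of 1 TPM only through the CDCA libraries, so its direction is not set against the others. ATP5F1B (ENSSSCG00000000405), the beta subunit that carries the catalytic sites, was listed at 276, 278 and 262 TPM (CON) and 169, 184 and 173 TPM (CDCA). The groups were far apart, at 272 ± 8.84 against 175 ± 8.04 TPM (SD, n = 3), a ratio of 0.646 and -0.63 as log2 fold change (SE 0.05, FDR 7.4e-05 by limma). ATP5F1A (ENSSSCG00000004499), the alpha subunit that alternates with beta in the head, was listed at 170.0, 159 and 151 TPM (CON) and 102, 102 and 103 TPM (CDCA). Its change was -0.64 on the log2 scale (SE 0.05, FDR 8.6e-05 by limma), close to that of its partner.

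The delta and gamma subunits of the F1 stalk were also lower. ATP5F1D, the delta subunit, had 79.1 ± 3.92 TPM (CON) and 58.3 ± 4.39 TPM (CDCA, SD, n = 3 each) (limma FDR 0.0018). ATP5F1C, the gamma subunit that forms the rotor shaft, was listed at 99.4, 91.5 and 89.7 TPM (CON) and 77.4, 85.5 and 79.3 TPM (CDCA). The CDCA libraries all lay under the CON libraries, with -0.21 as log2 fold change (SE 0.06, FDR 0.020 by limma). Its FDR was 0.069 without CDCA replicate 1 and 0.063 without CDCA replicate 3.

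The c-ring of the ATP synthase is a rotor of identical subunits made from 3 genes, whose mature proteins are the same. ATP5MC2 was by far the most abundant, at 309, 307 and 304 TPM (CON) and 219.8, 236 and 229.9 TPM (CDCA), and it fell by 0.42 on the log2 scale (SE 0.04, limma FDR 0.00015). ATP5MC1 was listed at 20.8, 19.7 and 15.7 TPM (CON) and 17.5, 16.6 and 10.5 TPM (CDCA), with overlapping groups (limma FDR 0.19). ATP5MC3 was weakly listed, at 1.32 ± 0.195 TPM (CON) and 0.787 ± 0.117 TPM (CDCA, SD, n = 3 each). Its FDR of 0.042 by limma rose to between 0.054 and 0.11 without CON replicate 1, CON replicate 2 or any 1 of the CDCA libraries, and without CON replicate 3 its mean fell under the filter of 1 TPM. The c subunit genes are alike in sequence, and reads could be split among them.

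Of the 3 subunits found by symbol in the peripheral stalk, which holds the head still against the membrane part, 1 was lower and 1 higher, and ATP5PD, found by its description, was lower. ATP5PO (OSCP), which caps the stalk at the top of F1, was listed at 234, 228 and 232 TPM (CON) and 240.1, 251 and 256 TPM (CDCA). Its rise was slight, with 0.10 as log2 fold change (SE 0.04, FDR 0.049 by limma). The rise was 0.05 (limma FDR 0.27) with the median ratio, and it turned to -0.05 (0.28) with totals without the mtDNA-encoded genes. Its FDR also rose to between 0.073 and 0.15 when any 1 library other than CDCA replicate 1 was left out. ATP5PB, subunit b, went from 221 ± 2.5 to 199 ± 4.59 TPM (SD, n = 3), -0.16 as log2 fold change (SE 0.03, FDR 0.0073 by limma). ATP5PF, subunit F6, was listed at 2.38 ± 0.237 and 2.25 ± 0.43 TPM (SD, n = 3), and its groups overlapped.

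ATP5IF1 (ENSSSCG00000027072) encodes the inhibitory factor that binds F1 and blocks the hydrolysis of ATP when the proton gradient falls. It was listed at 269, 261 and 253 TPM (CON) and 294, 280.0 and 288 TPM (CDCA). The groups did not overlap, and the log2 fold change was 0.14 (SE 0.04, FDR 0.021 by limma). It was 0.09 (limma FDR 0.063) with the median ratio and -0.02 (0.79) with totals without the mtDNA-encoded genes. Its FDR was 0.063 without CON replicate 2, 0.051 without CON replicate 3, 0.078 without CDCA replicate 1 and 0.061 without CDCA replicate 3.

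Of the other membrane subunits of complex V, ATP5ME (subunit e, which takes part in dimers of the enzyme) went from 23.6, 23.8 and 23.8 TPM (CON) to 14.9, 14.2 and 16.8 TPM (CDCA), -0.60 as log2 fold change (SE 0.07, FDR 0.00039 by limma). ATP5MG (subunit g) was listed at 29.8 ± 6.31 TPM (CON) and 22.6 ± 1.5 TPM (CDCA, SD, n = 3 each), with a log2 fold change of -0.37 (limma FDR 0.065), which was -0.49 (0.021) without CON replicate 1 and -0.21 (0.099) without CON replicate 2, its highest library. ATP5MD was listed at 337 ± 20.0 and 318 ± 10.5 TPM (SD, n = 3), and its groups overlapped. Its log2 fold change was -0.08 (limma FDR 0.23), but -0.24 (0.0086) with totals without the mtDNA-encoded genes and -0.13 (0.046) with the median ratio. It was -0.04 (limma FDR 0.53) without CON replicate 1 and -0.12 (0.079) without CON replicate 3.

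**Figure D2:**
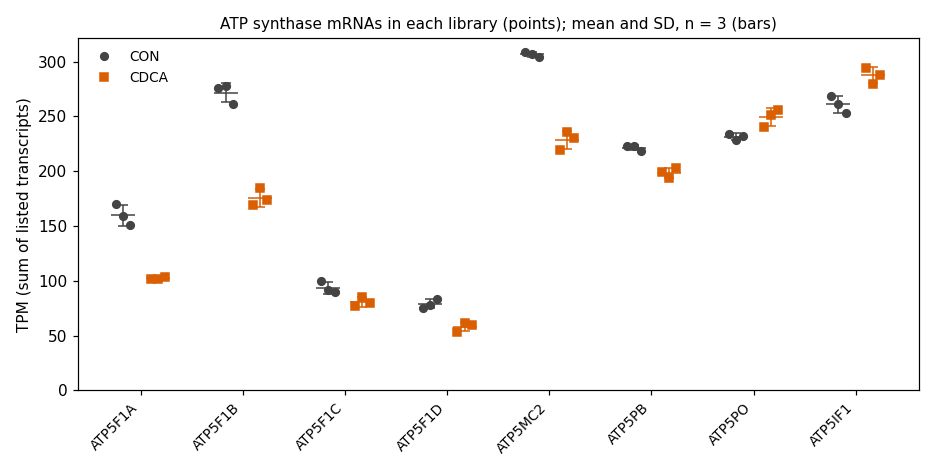
TPM of 8 mRNAs of the ATP synthase in each library (circles CON, squares CDCA; horizontal marks and bars are the mean and SD of 3 libraries). ATP5F1A and ATP5F1B sit near 102 and 175 TPM in CDCA against 160.0 and 272 TPM in CON, while ATP5PO and ATP5IF1 lie slightly above their CON libraries.

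Ratios within a library do not depend on how that library was scaled. The pairs were chosen after the values were seen and are given as a description. ATP5F1A per ATP5F1B was 0.616, 0.573 and 0.577 in CON and 0.603, 0.553 and 0.596 in CDCA, so the mRNAs of the catalytic pair kept nearly the same ratio, with overlapping groups. ATP5IF1 per ATP5F1B was 0.974, 0.941 and 0.968 in CON and 1.74, 1.52 and 1.66 in CDCA. ATP5PO per ATP5F1B went from 0.853 ± 0.032 to 1.42 ± 0.0577 (SD, n = 3). COX4I1 per ATP5F1B, the ratio of the markers of complexes IV and V, went from 2.02 ± 0.0766 to 3.34 ± 0.062 (SD, n = 3). For each of these 3 ratios every CDCA library lay above every CON library. All 3 have ATP5F1B as denominator, with a log2 fold change of -0.63, beside 0.14, 0.10 and 0.09 for ATP5IF1, ATP5PO and COX4I1. They are thus not 3 separate results.

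**Figure D3:**
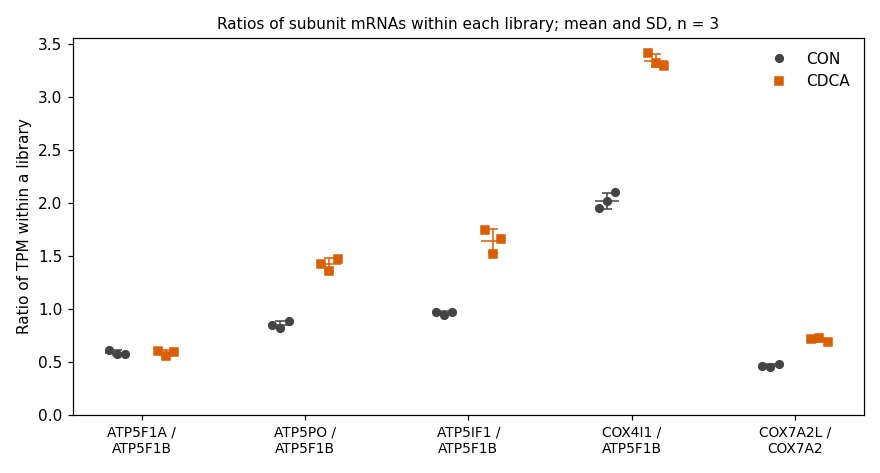
Ratio of the TPM of 2 mRNAs within each library (circles CON, squares CDCA; marks and bars are the mean and SD of 3 libraries). ATP5F1A per ATP5F1B overlaps between the groups, whereas ATP5PO, ATP5IF1 and COX4I1 per ATP5F1B and COX7A2L per COX7A2 are higher in each CDCA library than in any CON library.

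In complex IV, the most abundant subunits COX4I1 and COX8A did not pass the threshold as deposited. COX4I1 (ENSSSCG00000029034), which regulates the enzyme and binds next to the mtDNA-encoded core, was listed at 538, 559 and 549.8 TPM (CON) and 576, 612 and 571 TPM (CDCA). The CDCA libraries lay above the CON libraries, but the log2 fold change of 0.09 (SE 0.04) was not past the threshold (limma FDR 0.085, and 0.031 with the listed TPM rescaled to 1000000), and it was -0.06 with totals without the mtDNA-encoded genes. COX8A, a small membrane subunit, was listed at 356 ± 14 and 352 ± 12.7 TPM (SD, n = 3), and its log2 fold change of -0.02 was -0.17 (limma FDR 0.018) with the same totals. That of COX8A turned to 0.01 (limma FDR 0.86) without CON replicate 2 and to 0.006 (0.92) with the listed TPM rescaled to 1000000. COX7C, of the same kind, was listed at 20.4 ± 0.167 and 20.9 ± 0.239 TPM (SD, n = 3).

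The paired subunits COX5A and COX5B, which sit on the matrix side of cytochrome c oxidase, went opposite ways. COX5A was listed at 163, 163 and 147 TPM (CON) and 136, 132 and 146 TPM (CDCA), -0.19 as log2 fold change (SE 0.06, FDR 0.032 by limma). Its highest CDCA library lay just under its lowest CON library, and the FDR was between 0.090 and 0.10 without CON replicate 1, CON replicate 2, CDCA replicate 1 or CDCA replicate 2. COX5B was listed at 93.0, 96.4 and 96.7 TPM (CON) and 114, 116 and 111 TPM (CDCA), clear of each other, with 0.25 as log2 fold change (SE 0.04, FDR 0.0016 by limma). With totals without the mtDNA-encoded genes, that of COX5B was 0.10 (limma FDR 0.063).

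Several subunits of complex IV have isoforms from separate genes. COX6A1, the form found in most tissues, was weakly listed and fell, from 3.37, 3.82 and 3.84 TPM (CON) to 1.52, 1.83 and 1.90 TPM (CDCA), -0.77 as log2 fold change (SE 0.10, FDR 0.00092 by limma). COX6A2, the heart and muscle form, was listed at 2.53 ± 0.321 and 1.85 ± 0.238 TPM (SD, n = 3), with a limma FDR of 0.066, which was 0.025 with totals without the mtDNA-encoded genes, 0.049 with the median ratio and 0.042 without the trend. COX4I2, the lung form of subunit 4, was listed at 0 in every library, and COX7A1, the muscle form of subunit 7A, at 0.05 TPM or less in CON and 0.05 to 0.22 TPM in CDCA. COX6B2, the testis form of subunit 6B, was listed at 0.18, 0.32 and 0 TPM (CON) and 0.36, 0.73 and 0.34 TPM (CDCA), too low to be tested. NDUFA4 was listed at 0.53 TPM or less in every library, and NDUFA4L2 at 0.963 ± 0.342 and 1.27 ± 0.205 TPM (SD, n = 3), with overlapping groups.

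COX7A2L (ENSSSCG00000008466) had the largest rise of the 60 tested subunits found by symbol. It resembles subunit 7A of cytochrome c oxidase and is known for joining complexes III and IV. It was listed at 125, 123 and 119 TPM (CON) and 168, 170.2 and 171 TPM (CDCA), and the spread within each group was far smaller than the step between them. The ratio was 1.39 and the log2 fold change 0.47 (SE 0.03, limma FDR 7.2e-05), between 0.31 with totals without the mtDNA-encoded genes and 0.58 with its highest listed transcript. That transcript went from a mean of 89.3 to 134 TPM, a ratio of 1.5, and the next from 33.1 to 35.3 TPM, a ratio of 1.07. COX7A2, the common form of subunit 7A, was listed at 269, 274 and 246 TPM (CON) and 233, 235 and 248 TPM (CDCA), and its groups overlapped (limma FDR 0.056). The log2 fold change of COX7A2, -0.14, was -0.29 (limma FDR 0.0027) with totals without the mtDNA-encoded genes, -0.19 (0.011) with the median ratio and -0.19 (0.014) without CON replicate 3. COX7A2L per COX7A2 was 0.465, 0.449 and 0.484 in CON and 0.720, 0.723 and 0.691 in CDCA.

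**Figure D4:**
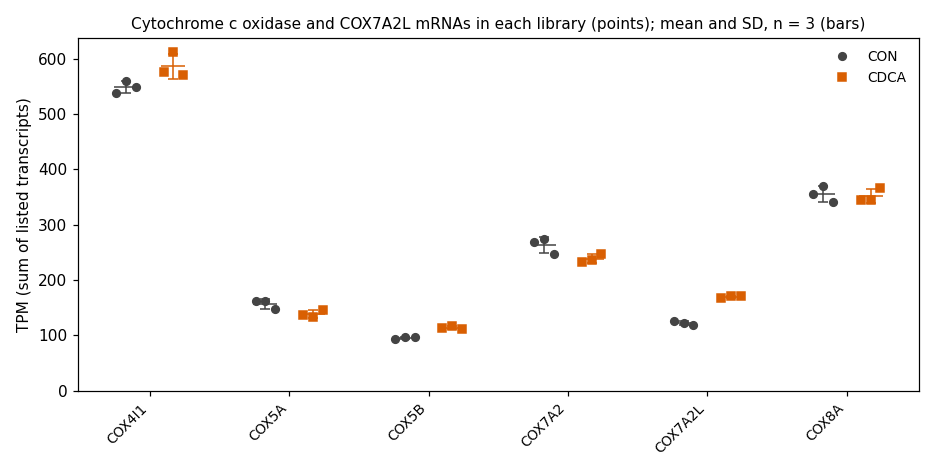
TPM of 5 mRNAs of cytochrome c oxidase and of COX7A2L in each library (circles CON, squares CDCA; marks and bars are the mean and SD of 3 libraries). COX7A2L steps up from 123 to 169.8 TPM and COX5B from 95.4 to 114 TPM, while COX8A overlaps between the groups.

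Complex I has a hydrophilic arm, where NADH is oxidised and electrons run to ubiquinone, and a membrane arm that pumps protons. Of 11 tested subunits of the hydrophilic arm 5 were lower (45.5%), and of 16 tested subunits of the membrane arm 6 were lower (37.5%) and 2 higher (12.5%), beside 23.9% and 29.3% of all tested genes, with medians of -0.17 and -0.24. The largest fall in the complex was that of NDUFA1, a small accessory subunit of the membrane arm. It was listed at 12.1, 13.0 and 18.8 TPM (CON) and 7.17, 8.08 and 8.03 TPM (CDCA), -0.81 as log2 fold change (SE 0.16, FDR 0.0049 by limma). CON replicate 3 was the highest by a wide step, and without it the log2 fold change was -0.63 (limma FDR 0.0021). In that fit NDUFS1, described below, fell by more, at -0.67 (limma FDR 0.035).

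The core subunits of the hydrophilic arm differed among themselves. NDUFS3, near the site where ubiquinone is reduced, was listed at 26.0, 25.3 and 24.2 TPM (CON) and 15.7, 18.0 and 16.2 TPM (CDCA), -0.57 as log2 fold change (SE 0.06, FDR 0.00047 by limma). The CON libraries were all above the CDCA libraries. NDUFV2, an iron-sulfur subunit, went from 133 ± 8.6 to 112 ± 6.46 TPM (SD, n = 3), also past the threshold (limma FDR 0.014). NDUFV1, which binds NADH and flavin, was listed at 45.1 ± 1.62 and 43.1 ± 3.07 TPM (SD, n = 3) and NDUFS8, with its iron-sulfur clusters, at 52.3 ± 3.21 and 53.8 ± 3.44 TPM (SD, n = 3). The groups of these 2 overlapped, but with totals without the mtDNA-encoded genes NDUFV1 was at -0.22 (limma FDR 0.023, from -0.07) and NDUFS8 turned from 0.04 to -0.11 (0.16). NDUFV1 was at -0.007 (limma FDR 0.92) without CDCA replicate 3 and -0.10 (0.26) without CDCA replicate 1. NDUFS8 was at -0.009 (limma FDR 0.92) without CON replicate 3, -0.008 (0.93) without CDCA replicate 2 and 0.08 (0.37) without CDCA replicate 3.

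NDUFS1, the largest core subunit, was variable. It was listed at 14.0, 15.7 and 10.4 TPM (CON) and 6.69, 9.66 and 11.0 TPM (CDCA), so the groups overlapped, and its log2 fold change of -0.51 (SE 0.20) had a limma FDR of 0.071. That FDR was 0.035 without CON replicate 3 and 0.049 without CDCA replicate 3, whereas without CDCA replicate 1 the log2 fold change was -0.33 (limma FDR 0.17). Among the accessory subunits of the arm, NDUFS6, which helps to complete the NADH-oxidising module, fell by 0.59 on the log2 scale (SE 0.06, limma FDR 0.00020), from 70.8 ± 3.18 to 46.7 ± 2.55 TPM (SD, n = 3). NDUFS4, of the same module, was listed at 68.0 ± 5.25 and 77.3 ± 4.61 TPM (SD, n = 3), with a limma FDR of 0.068, which was 0.0498 without CON replicate 2, 0.046 without CDCA replicate 3 and 0.16 without CON replicate 3. The log2 fold change of NDUFS4, 0.18, was 0.03 with totals without the mtDNA-encoded genes and with its highest listed transcript (limma FDR 0.73 and 0.91).

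In the membrane arm 2 accessory subunits of the NDUFB family rose. NDUFB9 was listed at 242, 255 and 237 TPM (CON) and 307, 293 and 305 TPM (CDCA), 0.30 as log2 fold change (SE 0.04, FDR 0.0010 by limma). Both of its abundant listed transcripts rose, with ratios of 1.21 and 1.27. NDUFB4 was listed at 145, 142 and 133 TPM (CON) and 159, 180.4 and 179.8 TPM (CDCA), also clear of each other, with 0.30 as log2 fold change (SE 0.06, FDR 0.0063 by limma). With its highest listed transcript alone, the FDR of NDUFB4 was 0.19, and with totals without the mtDNA-encoded genes it was 0.056, whereas NDUFB9 passed in all 15 alternative fits.

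The other members of the membrane arm past the threshold were all lower. NDUFB6 went from 4.37 ± 0.227 to 2.64 ± 0.528 TPM, NDUFA10 from 95.6 ± 5.88 to 74.9 ± 4.99 TPM, NDUFB7 from 146 ± 6.48 to 123 ± 3.2 TPM, NDUFA11 from 35.8 ± 0.875 to 30.0 ± 2.3 TPM and NDUFC2 from 50.2 ± 1.24 to 43.3 ± 1.57 TPM (SD, n = 3 each). Their log2 fold changes lay between -0.57 and -0.21, and that of NDUFA11 had an FDR of 0.0502 by limma without CDCA replicate 1. NDUFA13, an assembly and membrane-arm subunit, missed the threshold (limma FDR 0.055) and passed it without CDCA replicate 2 (0.036), with totals without the mtDNA-encoded genes (-0.39, 0.0063) and with the median ratio (-0.29, 0.031). In complex I as a whole, NDUFA2, NDUFA6, NDUFA8, NDUFB2, NDUFB3, NDUFB5, NDUFB8, NDUFB10 and NDUFB11 had overlapping groups. With totals without the mtDNA-encoded genes, NDUFA2 was at -0.26 (limma FDR 0.017, from -0.11) and NDUFB8 at -0.22 (0.0095, from -0.07), and NDUFA6, NDUFA8, NDUFB2 and NDUFB5 turned from above to below 0 without passing the threshold. NDUFA2 was at -0.05 (limma FDR 0.55) without CON replicate 3 and NDUFB8 at -0.03 (0.71) without CON replicate 2. The last member of the hydrophilic arm that passed, NDUFA5, went from 167 ± 9.55 to 148 ± 7.09 TPM (SD, n = 3, limma FDR 0.036), and its FDR was between 0.068 and 0.11 without CON replicate 1, CON replicate 2, CDCA replicate 1 or CDCA replicate 2.

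UQCRQ (ENSSSCG00000014289), a small accessory subunit of complex III, had the largest fall of the 60 tested subunits. It was listed at 34.0, 31.5 and 27.0 TPM (CON) and 15.1, 12.9 and 13.5 TPM (CDCA). The groups were well apart, at a ratio of 0.448, and the log2 fold change was -1.10 (SE 0.10, FDR 0.00016 by limma), between -1.19 and -1.03 over the fits that dropped 1 library. UQCR10, another small subunit, fell by 0.33 on the log2 scale (SE 0.05, limma FDR 0.0015), from 88.8 ± 5.14 to 70.1 ± 0.89 TPM (SD, n = 3). Both have 1 listed transcript.

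The redox subunits of complex III had smaller log2 fold changes than UQCRQ. CYC1, cytochrome c1, which hands electrons to cytochrome c, was listed at 190.1, 222 and 201 TPM (CON) and 184, 182 and 173 TPM (CDCA). Its log2 fold change of -0.18 (SE 0.06) had a limma FDR of 0.043, which rose to between 0.074 and 0.13 in 5 of the 6 fits with a library omitted, all but that without CON replicate 1, and without CON replicate 2 the log2 fold change was -0.12. UQCRFS1, the Rieske iron-sulfur protein, was listed at only 1.96, 1.25 and 1.44 TPM (CON) and 1.21, 1.01 and 0.92 TPM (CDCA) (limma FDR 0.11). The large core proteins UQCRC1 (32.5 ± 0.57 and 36.0 ± 2.93 TPM) and UQCRC2 (51.5 ± 3.64 and 51.8 ± 2.34 TPM; SD, n = 3) did not pass the threshold. The log2 fold change of UQCRC1 was 0.14 (limma FDR 0.097), and it was 0.19 (0.045) without CDCA replicate 3, 0.083 (0.26) without CDCA replicate 1 and -0.0056 (0.95) with totals without the mtDNA-encoded genes, which also turned UQCRC2 to -0.14 (0.079).

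Complex II, which also works in the citric acid cycle, was represented by 3 subunits under their symbols. SDHB, its iron-sulfur subunit, was listed at 70.2, 75.8 and 71.0 TPM (CON) and 78.8, 79.5 and 79.5 TPM (CDCA). The CDCA libraries were all above CON, but the log2 fold change of 0.13 (SE 0.04, limma FDR 0.034) turned to -0.02 (limma FDR 0.70) with totals without the mtDNA-encoded genes, and the FDR was between 0.080 and 0.087 in 5 of the 6 fits with a library omitted, all but that without CON replicate 2. The membrane anchors SDHC, at 35.1 ± 2.38 and 33.9 ± 3.7 TPM, and SDHD, at 47.2 ± 4.84 and 40.5 ± 1.88 TPM (SD, n = 3), had limma FDRs of 0.66 and 0.058. The log2 fold change of SDHD, -0.21, was -0.28 (limma FDR 0.022) without CON replicate 3 and -0.14 (0.12) without CON replicate 1. It was -0.36 (0.0073) with totals without the mtDNA-encoded genes, -0.26 (0.024) with the median ratio and -0.32 (0.025) with the highest listed transcript.

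The catalytic subunit SDHA, to which FAD is bound, had no symbol in the deposited table and was found by the symbol of its gene ID in a reference table. It was listed at 28.4, 28.6 and 28.1 TPM (CON) and 21.7, 22.0 and 21.6 TPM (CDCA), with hardly any spread, and its change was -0.37 on the log2 scale (SE 0.04, FDR 0.00039 by limma). In all, 14 further subunits of a list of 85 were found in this way, by the description of the gene ID or, for NDUFAB1, by a symbol outside the rule, of which 10 were tested, 3 were lower and 2 higher, near the 23.9% and 29.3% of all tested genes. NDUFA3 went from 43.2 ± 1.54 to 39.0 ± 1.16 TPM and ATP5PD, subunit d of the peripheral stalk, from 219 ± 16 to 189.6 ± 13.5 TPM (SD, n = 3), both lower, although those of ATP5PD touched. NDUFS7 went from 15.5 ± 0.735 to 17.8 ± 0.625 TPM (SD, n = 3) and was higher. ATP5F1E, the epsilon subunit of F1, went from 0.553 ± 0.159 to 1.45 ± 0.415 TPM (SD, n = 3). It is the other of the 2 counted as higher, but it reached the filter of 1 TPM only through its CDCA libraries. The values of these further subunits are from the fit as deposited, and no other scaling is given for each of them. COX7B was listed at 260.2 ± 21.3 and 242 ± 15.7 TPM (SD, n = 3), with overlapping groups. A further 7 of the 85 were not matched.

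The nuclear-encoded and the mtDNA-encoded mRNAs of the same complex moved by different amounts. The summed TPM of the nuclear-encoded subunits of complex IV was 1571 ± 42.9 in CON and 1625 ± 23.9 in CDCA (SD, n = 3), with overlapping groups, while COX1, COX2 and COX3 together went from 22894 ± 933 to 3664 ± 262 TPM (SD, n = 3). The mtDNA-encoded TPM per nuclear-encoded TPM of complex IV was thus 15.2, 14.0 and 14.5 in CON and 2.30, 2.07 and 2.39 in CDCA. The same ratio went from 8.11 ± 0.436 to 2.64 ± 0.244 in complex I, from 3.70 ± 0.223 to 0.814 ± 0.0786 in complex III and from 6.19 ± 0.303 to 1.63 ± 0.111 in complex V (SD, n = 3). In each of the 4 complexes no CDCA library reached the lowest CON library. These ratios cover the listed transcripts only and are not ratios of protein.

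**Figure D5:**
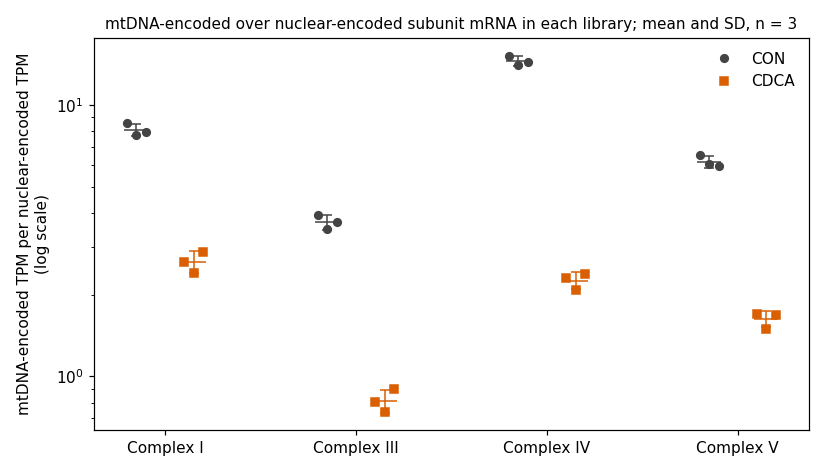
Summed TPM of the mtDNA-encoded mRNAs of a complex divided by that of its nuclear-encoded mRNAs, on a log scale, in each library (circles CON, squares CDCA; marks and bars are the mean and SD of 3 libraries). The ratio is lower in each CDCA library than in any CON library, from 14.6 to 2.25 on average in complex IV and from 8.11 to 2.64 in complex I; complex II has no mtDNA-encoded subunit.

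Genes that help to build the complexes went both ways. Of 52 assembly factors, 41 were listed by symbol and 34 tested, of which 11 were lower (32.4%, against 23.9% of all tested genes) and 6 higher (17.6%, against 29.3%), and their median was -0.20 on the log2 scale. ATPAF1, a chaperone of the F1 beta subunit, went from 26.6 ± 0.696 to 14.6 ± 0.999 TPM (SD, n = 3), -0.82 as log2 fold change (SE 0.06, FDR 7.4e-05 by limma), and ATPAF2, its counterpart for alpha, had one of -0.24 (limma FDR 0.0053). ATPAF2, COX20, UQCC1, ACAD9 and TIMMDC1, and TFAM and NRF1 among the transcription regulators, were chosen after their values were seen. For complex IV, COX20 fell by 0.73 on the log2 scale (limma FDR 0.00028), while COX19 rose by 1.07 (limma FDR 5.3e-05), from 3.25 ± 0.167 to 7.94 ± 0.325 TPM (SD, n = 3). For complex III, UQCC1 fell by 0.68 (limma FDR 0.0022), and for complex I, ACAD9 fell by 0.46 (limma FDR 0.0049) and TIMMDC1 rose by 0.50 (limma FDR 0.020).

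The mobile carrier CYCS, cytochrome c, which runs between complexes III and IV, fell from 56.7 ± 3.9 to 42.0 ± 0.899 TPM (SD, n = 3), a log2 fold change of -0.42 (limma FDR 0.0011). Of a list of 14 electron carriers, ubiquinone synthesis and supercomplex genes, which holds CYCS and COX7A2L, 11 were tested, of which 3 were lower (27.3%) and 2 higher (18.2%), beside 23.9% and 29.3% of all tested genes. Of 10 transcription regulators of subunit genes, 6 were tested. ESRRA, a nuclear receptor of mitochondrial genes, rose by 0.35 on the log2 scale (limma FDR 0.026). TFAM, which packages and transcribes mtDNA, fell by 0.30 (limma FDR 0.023). PPARGC1B, a coactivator of ESRRA, was weakly listed, at 1.48 ± 0.201 TPM (CON) and 0.83 ± 0.157 TPM (CDCA, SD, n = 3 each). It reached the filter of 1 TPM only through its CON libraries, so its log2 fold change of -0.44 (limma FDR 0.026) is given as a description. NRF1, at 2.57 ± 0.686 and 3.19 ± 0.409 TPM (SD, n = 3), did not pass the threshold.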

How the data were processed

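RNA-seq of 6 IPEC-J2 libraries (3 CON, 3 CDCA) was used. Per the study, transcripts were quantified by RSEM, and the authors deposited TPM for 63041 transcripts, with gene IDs but neither transcript IDs nor counts. The submitters' processing notes name Bowtie 0.12.2 and the build mm10, a mouse genome, although the gene IDs are those of the pig. The annotation release is not given in the sources used here, so no coordinates or sequences are printed.

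Transcripts were summed per gene ID. Differences were fitted with limma 3.58.1 in R 4.3.3 (lmFit and eBayes, trend) on log2(TPM + 1) for the 8708 genes whose mean reached 1 TPM, and p-values were adjusted over all of them (Benjamini-Hochberg). "Lower" and "higher" mean an FDR under 0.05. The fold change of a weakly listed gene is understated on this scale. The test named in the study needs read counts and was not used. The fit was tested on simulated data. Sums and ratios carry no test. The result for 1 subunit is counted but not reported here.

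The members and lists were chosen with earlier results of these data known. Genes named by rule were the core subunits, isoform families, COX4I1, ATP5F1B, the extremes of each complex and any subunit over 1 in log2 fold change. Other subunits were named after their values were seen, as were the roles within complexes. Alternatives were other pseudocounts (0.1 TPM), filters, scalings, transcripts, symbols and fits, and each library left out. Symbols of other lists came from the table, or else from a reference of gene IDs.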

Additional observations from a re-analysis of the deposited data

How the results depend on the processing

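Of the 24 subunits lower in CDCA, 18 kept an FDR under 0.05 in every alternative fit in which they were tested, as did 2 of the 7 that were higher (COX7A2L and NDUFB9). The same count over all called genes is not given here, so these have no background to be set against. Across the 60 subunits, 779 of 889 results kept their side of the threshold, 72 lost and 38 gained significance. The sign turned in 26 results. Of these, 23 were for 11 subunits that were not past the threshold (9 of the 11 with totals without mtDNA-encoded genes). The other 3 were for subunits that were: with totals without the mtDNA-encoded genes, ATP5IF1 was at -0.015, ATP5PO at -0.049 and SDHB at -0.020. With the median ratio these 3 stayed above 0, at 0.087, 0.053 and 0.081 (limma FDR 0.063, 0.27 and 0.13). With totals without the mtDNA-encoded genes 2 subunits were higher, and the medians of complexes I to V were -0.36, -0.20, -0.37, -0.14 and -0.47. With median ratio scaling 4 were higher, and the medians of complexes I and IV were -0.27 and -0.043. With the highest listed transcript 23 were lower and 4 higher (all genes 22.4% and 26.5%), and without the trend 22 and 4 (23.7% and 29.1%). Without a filter on low values the median of complex IV was 0.047, and with a filter at a mean of 5 TPM those of complexes I and III were -0.17 and -0.18. With members chosen by the symbols of a reference table, the medians of complexes I and V were -0.17 and -0.21, and with the subunits named only by description or gene ID added, an alternative chosen after seeing the data, they were -0.18 and -0.21. When 1 library was dropped, 18 to 25 subunits were lower and 4 to 6 higher (4 without CON replicate 3), beside 19.9% to 22.3% and 24.7% to 27.4% of all genes tested, and the medians ranged from -0.23 to -0.15 in complex I, -0.13 to 0.03 in complex II, -0.27 to -0.21 in complex III, -0.01 to 0.02 in complex IV and -0.41 to -0.26 in complex V. The causes of these shifts were not tested.

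CON and CDCA libraries share replicate numbers, but the deviations of libraries with the same number correlated at -0.035, -0.092 and -0.051, so the numbers were not taken as pairs. With the replicate number as a block, 23 subunits were lower and 6 higher, and over all genes 1902 were lower and 2316 higher. The deposited TPM hold no counts, so values near 0 carry no floor.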

Other observations

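TOMM40, TOMM20, SLC25A5 and SLC25A3 and the transcripts below were picked after their values were seen. Mitochondrial genes outside the respiratory chain were read beside the subunits. Of 15 such genes, 14 were listed by symbol and 13 tested, of which 9 were lower in CDCA (69.2%, against 23.9% of all tested genes) and 1 higher (7.69%, against 29.3%) by limma, with a median log2 fold change of -0.22. IMMT (mitofilin), which shapes the cristae where the complexes sit, went from 26.2 ± 1.75 to 9.49 ± 1.87 TPM (SD, n = 3), a log2 fold change of -1.39 (limma FDR 0.00018). TOMM40, the pore by which subunits enter from the cytosol, fell by 0.85 on the log2 scale (limma FDR 7.5e-05) and the receptor TOMM20 by 0.44 (limma FDR 0.0016), while the receptor TOMM70 rose by 0.22 (limma FDR 0.0093). SLC25A5, which exchanges ADP for ATP, went from 279 ± 17.9 to 206 ± 3.35 TPM (SD, n = 3, limma FDR 0.00058), whereas the phosphate carrier SLC25A3 was listed at 195 ± 9.61 and 205 ± 11.6 TPM (SD, n = 3, limma FDR 0.31). The values of these genes are from the fit as deposited, and no other scaling is given for them.

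The listed transcripts of a subunit did not always move together. Of 19 subunits with at least 2 listed transcripts at a mean of 1 TPM or more, 7 had ratios of CDCA to CON on both sides of 1. The 4 transcripts of COX7A2, for example, had ratios of 0.851, 1.06, 1.5 and 0.272, and the last had 15.9, 18.3 and 41.4 TPM (CON) and 10.7, 0 and 9.96 TPM (CDCA). In ATP5F1A both main transcripts fell alike, with ratios of 0.639 and 0.646. Differences between transcripts were not tested.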
